A study of Drosophila melanogaster with 4 samples.

Results

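The subject was binding of the GFP-tagged Lola isoform PJ on the sequences of the Drosophila melanogaster genome that are largely heterochromatic or could not be placed on an arm: chromosome 4, the Het sequences and U. Every peak that the authors' list places on sequence 4, on U or on a sequence whose name ends in Het was taken, with no filter on score or width. This gave 215 of the 2922 peaks in the list (7.36%): 140 on chromosome 4, 48 on the Het sequences and 27 on U. The 48 Het peaks were divided into 21 on 2RHet, 16 on 3LHet, 8 on 3RHet, 2 on XHet and 1 on 2LHet. The 2375 peaks on 2L, 2R, 3L, 3R and X, called the larger arms below, served as the comparison.

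Lola (longitudinals lacking) is a family of transcription factors that share a BTB domain and differ in their C-terminal parts, most of which carry zinc fingers, through alternative splicing of one gene. The family is known for its roles in axon growth and guidance and in neuronal identity. Chromosome 4, the dot chromosome, is largely packaged as heterochromatin with HP1a and methylated histone H3 lysine 9, yet it carries active genes among remnants of transposable elements. The Het sequences are assembled pericentromeric heterochromatin assigned to an arm. U strings together scaffolds that were not assigned to any chromosome, so distances along U need not be distances along a chromosome. All of these sequences are rich in repeats, where short reads can match several places.

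The series measured chromatin immunoprecipitation followed by sequencing in whole embryos aged 12 to 24 h of the strain lola-RJ-GFP. The genotype was PBac{y[+]-attP-3B}VK00033, a docking site for transgenes, with a transgene that holds the genomic coding region of lola-RJ. No lola mutation is named in the labels, and the extraction protocol names y; bw cn sp flies, a difference the labels do not resolve. There were 2 libraries precipitated with the rabbit polyclonal antibody ab290 against GFP and 2 libraries of input DNA, all 4 of this genotype and age. The labels do not say whether replicate numbers stand for separate embryo collections. No GFP precipitation from untagged embryos was analysed here, so signal that does not depend on the tag cannot be told apart from binding. In whole embryos, binding in more cells and stronger binding per cell cannot be told apart either. The list carries no chromatin mark, so the heterochromatic nature of these sequences was taken from background knowledge.

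Each peak had a start, an end and 1 score, and no value belonged to a single library. There was therefore no replicate error for any peak and no test over samples. The sequencing depth behind the peaks is unknown. The score is the authors' own value for the peak, and what it was computed from is not named in the file, so it was used only to describe and rank peaks within the list. Intervals printed with medians and shares are 95% intervals for counting error over peaks (order statistics for medians, exact Clopper-Pearson for shares, exact Poisson for densities). They take neighbouring peaks as independent, so they are too narrow where peaks come in groups. For a ratio of medians, the limits of the set's median were divided by the median of the larger arms. That median was taken as fixed, so its own error is left out. All coordinates are those of FlyBase release 5.

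Chromosome 4 carried many peaks, many of them strong, along most of the span between its first and last peak. Its 140 peaks lay between 62997 and 1347730, a span of 1.28 Mb, at 109 peaks per Mb (91.7 to 129) against 20.0 per Mb (19.2 to 20.8) on the larger arms. To set this beside stretches of equal length, the larger arms were tiled with 90 windows as long as the span of chromosome 4. Those windows held a median of 24 peaks. The fewest in a window was 5, and the most were 102 and 69. The window with 102 peaks lay on 2L and included a single group of 68. No window reached the 140 peaks of chromosome 4, whether tiling began at the first or at the last peak of an arm. By other measures the 2L window with 102 peaks passed chromosome 4. Its peaks covered 103.6 kb, against 99.9 kb, and 41 of them measured at least 1000 bp, against 34.

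**Figure D1:**
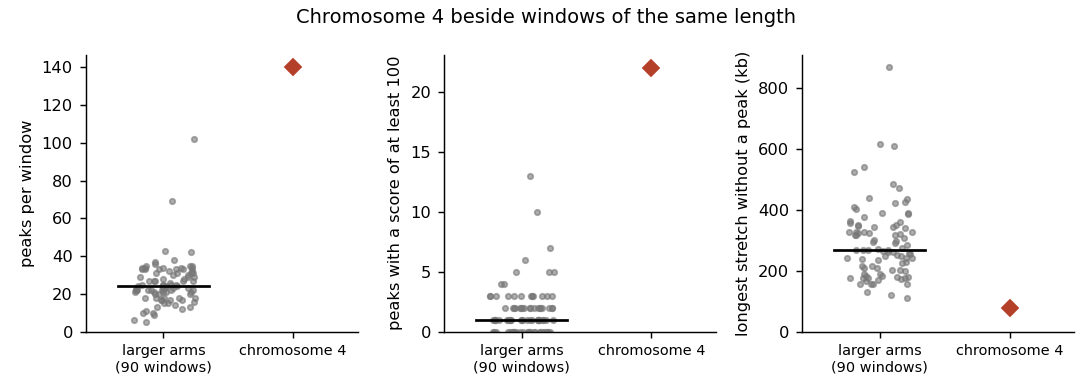
Chromosome 4 (diamond) beside the 90 windows of the same length on the larger arms (points; horizontal line, median). The panels show peaks per window, strong peaks (score of 100 or more), and the longest stretch without a peak in kb. For chromosome 4 this stretch was sought between its first and last peak. Chromosome 4, at 140 peaks, 22 strong peaks and 77.8 kb, lies outside the range of the windows in each panel.

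The separation was wider for strong peaks. A score of at least 100 was found for 22 of 140 peaks on chromosome 4 (15.7%; 10.1 to 22.8%), where the share in the whole list was 6.84%. In the windows of equal length the median was 1 such peak, and the highest counts were 13 and 10. Per Mb of span, chromosome 4 had 17.1 strong peaks (10.7 to 25.9) and the larger arms 1.41 (1.20 to 1.64), a ratio of 12.2 (7.43 to 19.1). The ratio for all peaks was 5.45 (4.56 to 6.47).

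Between its first and last peak, chromosome 4 had no long empty part. Sequence before the first peak, which starts at 62997, and after the last was not counted. The longest stretch between neighbouring peaks measured 77.8 kb, from 717906 to 795696. The next longest were 55.6 kb, from 268929 to 324538, and 40.8 kb, from 1002005 to 1042797. On the larger arms every one of the 90 windows had a longer empty stretch, between 110 and 869 kb. All 12 complete windows of 100 kb on chromosome 4, counted from the first peak, held between 7 and 18 peaks and at least 1 with a score of at least 100. All 25 complete windows of 50 kb held a peak, with a median of 6 and a highest count of 14.

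**Figure D2:**
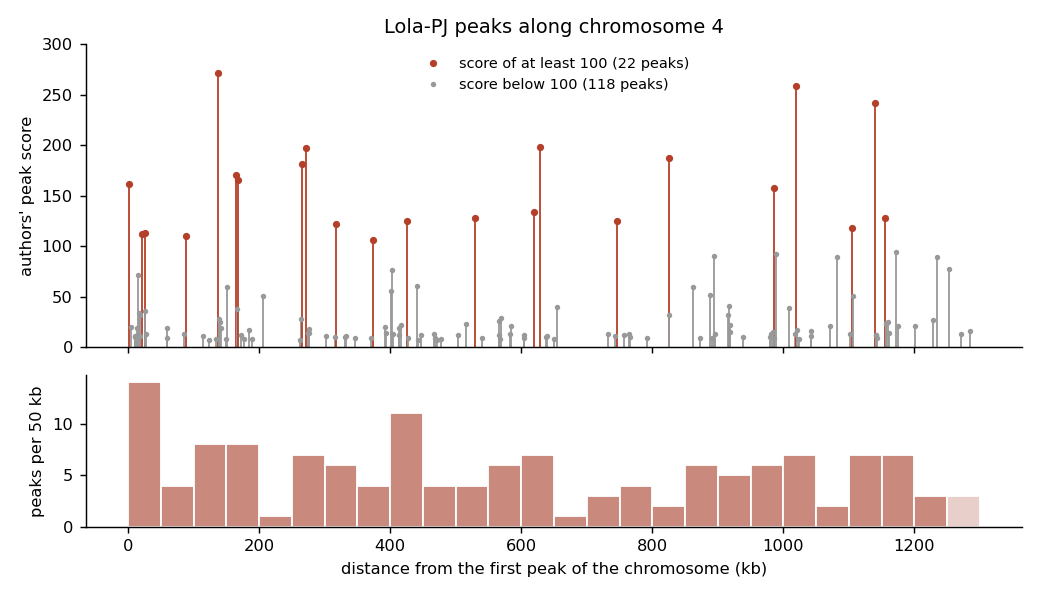
Score of each of the 140 peaks against its distance from the first peak of chromosome 4 in kb (upper panel), and the number of peaks per 50 kb (lower panel; the last bar, paler, is an incomplete window). The 22 strong peaks (score of 100 or more) are drawn in colour and occur along most of the chromosome, while the fullest window, with 14 peaks, is the first.

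The number of peaks varied along the chromosome, but the intervals of the 3 parts compared here overlapped. When the span was divided into 3 equal parts, the first held 60 peaks (45.8 to 77.2), the middle 34 (23.5 to 47.5) and the last 46 (33.7 to 61.4). The first part also held 12 of the 22 strong peaks, and the other parts 5 each. Peaks of the middle part had the lowest median score, 12.4, and the lowest median width, 326 bp. The first part had medians of 18.8 and 454 bp, and the last 20.9 and 482.5 bp. No peak with a score of at least 100 lay after 1219025.

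The highest score on chromosome 4, 271.75, belonged to a peak of 2541 bp at 199440 to 201980 and ranked 10th in the list. It was followed by 258.12 for a peak of 1531 bp at 1081309 to 1082839, and by 241.56 for one of 1916 bp at 1201714 to 1203629. These 3 peaks lay in different groups and were each accompanied by weaker peaks within 1 kb. The next scores were 197.76 at 690550 to 692292, 196.76 at 334112 to 336249 and 187.69 at 887412 to 888172. A peak at 328278 to 329293 had a score of 181.75, and one at 226299 to 227960 had 170.01. Of these, the peaks with 196.76 and 181.75 were neighbours. Strong peaks on chromosome 4 were separated by a median of 46.4 kb (16.6 to 84.2 kb), against 332 kb (223 to 461 kb) on the larger arms.

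On the Het sequences peaks were few, and their median score was the highest of the sets compared here. The median score was 43.46 (20.52 to 69.48), compared with 18.41 (17.52 to 19.12) on the larger arms and 19.35 (18.61 to 19.96) in the whole list. A score of at least 100 was found for 10 of 48 peaks (20.8%; 10.5 to 34.99%). The share was 6.84% in the whole list and 7.03% on the larger arms. These 10 peaks came from all 5 Het sequences: 4 on 3LHet, 3 on 2RHet and 1 on each of 2LHet, 3RHet and XHet. Leaving out 2RHet, 3LHet or 3RHet in turn gave median scores between 2.10 and 2.68 times that of the larger arms. With all of them it was 2.36 times (1.11 to 3.77). The intervals were 1.11 to 3.64 without 3LHet and 1.03 to 4.67 without 3RHet. Without 2RHet the interval was 0.67 to 4.85, which includes 1, so the higher score was not separated from the larger arms there.

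The strongest Het peak lay on 2RHet at 470901 to 473022, with a score of 306 and a width of 2122 bp, and ranked 6th in the list. On the same sequence a peak at 197428 to 199231 had a score of 209.74, and one at 369869 to 370618 had 202.05. All 3 lay at the low-coordinate end of the 3.00 Mb over which 2RHet peaks were spread. On 3LHet the highest score, 275.89, belonged to a peak at 1396120 to 1397478 that ranked 9th in the list. It was followed there by 142.94 at 601076 to 603200 and by 114.03, a score shared by the peaks at 458382 to 459810 and 604889 to 606413.

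The remaining Het sequences held single strong peaks. The only peak on 2LHet, at 32425 to 35047, had a score of 121.98 and at 2623 bp was the widest of all Het peaks. XHet had a peak of 1644 bp with a score of 105.94 at 75121 to 76764 and a weak one of 236 bp with a score of 10.76 at 61241 to 61476. On 3RHet the peak at 1898784 to 1899736 reached a score of exactly 100. The next on 3RHet were 67.06 at 1523887 to 1524524 and 49.29 at 1823705 to 1824382.

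On U no strong peak was found. Its 27 peaks had scores from 8.59 to 75.67 with a median of 17.48 (12.96 to 28.49), close to that of the larger arms, but 0 of 27 reached 100, where the share in the whole list was 6.84%. The exact interval for U reaches 12.8%, and the simpler limit of 3 counts of the total is 11.1%, both for counting error only. A share like that of the whole list was thus within what 27 peaks allow. The highest, 75.67, lay at 5687854 to 5688422. It was followed by 51.71 at 7544092 to 7545092 and 48.71 at 7458001 to 7458522. The median score of chromosome 4, 16.72 (13.29 to 21.49), was close to that of U, and the intervals of their shares of strong peaks overlapped.

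**Figure D3:**
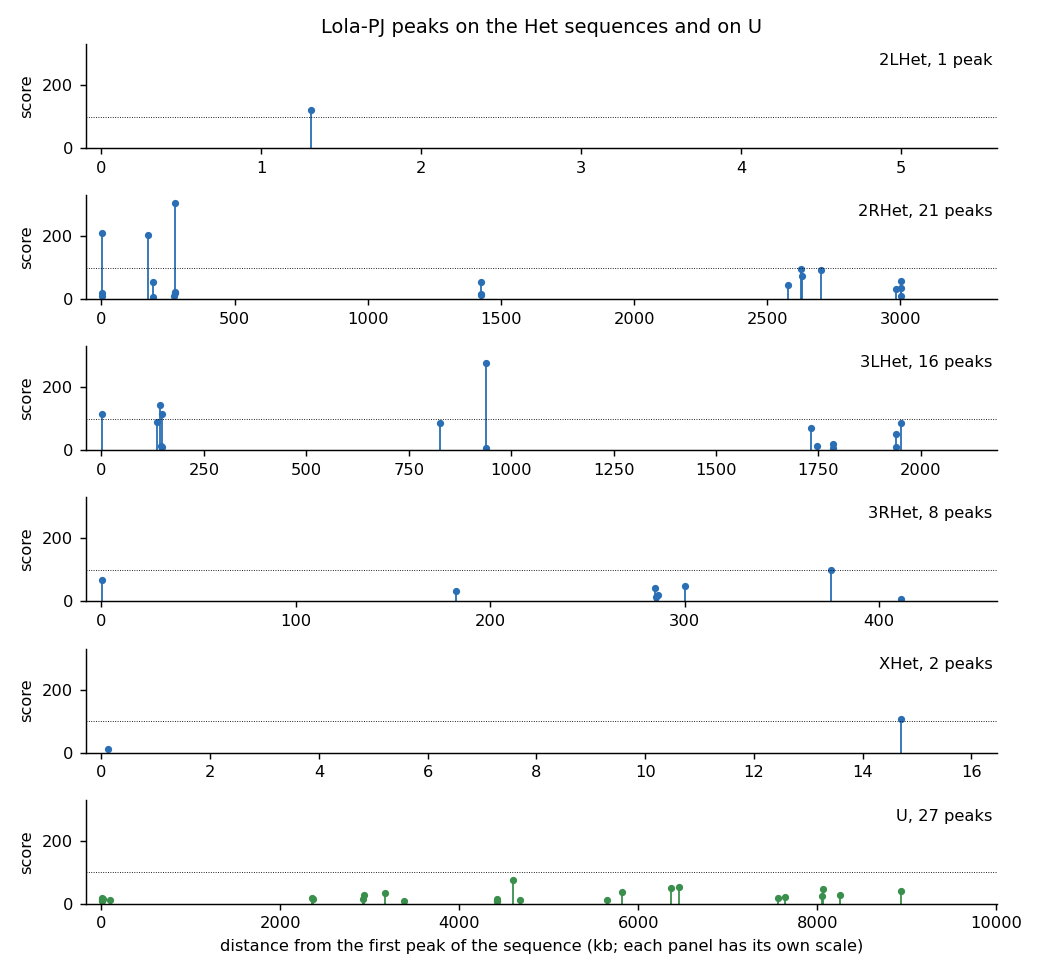
Score of each peak on the 5 Het sequences and on U against its distance from the first peak of that sequence in kb, with a separate distance scale in each panel; the dotted line marks a score of 100. Each Het sequence has at least 1 peak that reaches the line, and none of the 27 peaks on U does.

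By median, peaks were widest on the Het sequences and narrowest on U. The ratio of the Het median to that of the larger arms was 1.27 (0.97 to 1.77), an interval that includes 1. Within each of the score classes given below, the Het median was lower than that of the larger arms. The median width was 568.5 bp (433 to 791) on the Het sequences, 440 bp (368 to 517) on chromosome 4 and 302 bp (254 to 401) on U, compared with 446 bp (429 to 465) on the larger arms. The typical peak of chromosome 4 was thus as wide as one on the larger arms, and 43 of the 90 windows of equal length had a median at or above 440 bp. When only peaks at or above the list's median score of 19.35 were kept, the ratio of the medians moved from 0.99 to 1.37, and that of the median scores from 0.91 to 1.58. Wide peaks made up a larger share. On chromosome 4, 34 of 140 peaks (24.3%; 17.4 to 32.2%) measured at least 1000 bp, where the share in the whole list was 13.9%, and the 95th percentile was 1927 bp against 1476 bp on the larger arms. Of the 90 windows of equal length, 10 had a share of wide peaks at or above that of chromosome 4, and on 2L as a whole the share was 19.96% (16.5 to 23.8%). On the Het sequences 12 of 48 peaks were that wide (25%; 13.6 to 39.6%), and on U 1 of 27 (3.70%; 0.0937 to 19.0%).

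Of all 2922 peaks the widest was on chromosome 4, spanning 4503 bp from 680021 to 684523 with a score of 134.18. The peak at the low-coordinate end of the chromosome's span, at 62997 to 66527, measured 3531 bp with a score of 161.87 and was the third widest of the list. A peak of 3227 bp at 149838 to 153064 had a score of 110.5. Among the 215 peaks on chromosome 4, the Het sequences and U, the next in width were the 2623 bp peak on 2LHet and the 2541 bp peak that had the highest score on chromosome 4. All 5 of these peaks had scores above 100, but the order of their widths was not the order of their scores.

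Width and score were related in each set, with a Spearman rho of 0.83 over the 140 peaks of chromosome 4, 0.87 over the 48 Het peaks and 0.44 over the 27 peaks on U, compared with 0.78 on the larger arms. Both values come from the same peak call and peaks are not replicates, so these are descriptions. To compare widths at similar scores, peaks were divided at the quartiles of score of the larger arms (11.67, 18.41 and 35.925). Chromosome 4 had 28.6% of its peaks in the lowest class and 29.3% in the highest, and fewer in between. The Het sequences had 52.1% in the highest class, and U was spread evenly, with 22.2 to 25.9% in each.

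In the highest score class the median width was 1256 bp (1028 to 1563) on chromosome 4, 890 bp (678 to 1429) on the Het sequences and 499 bp (214 to 1001) on U, compared with 942.5 bp (893 to 996) on the larger arms. The median score in this class was higher on chromosome 4, at 110.5, and on the Het sequences, at 89.21, than on the larger arms, at 69.3. On U it was 47.755. In the class from 18.41 to 35.925 the order was different. Chromosome 4 had a median of 465 bp (389 to 626) and U one of 332 bp (207 to 602), both below the 538 bp (514 to 561) of the larger arms, and the Het sequences had 533.5 bp (311 to 1015). In the lowest class the Het median was 244 bp (215 to 314), against 264.5 bp (257 to 272) on the larger arms. In the class from 11.67 to 18.41 it was 327 bp (213 to 426), against 353 bp (339 to 373). The Het median was thus below that of the larger arms in each class, with overlapping intervals. Scores within a class were not equal. In the lower classes the Het median scores were 9.36, 12.645 and 21.915, against 9.83, 14.48 and 24.32 on the larger arms. The intervals of U and of the Het sequences are wide in all classes, which held between 6 and 25 of their peaks.

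**Figure D4:**
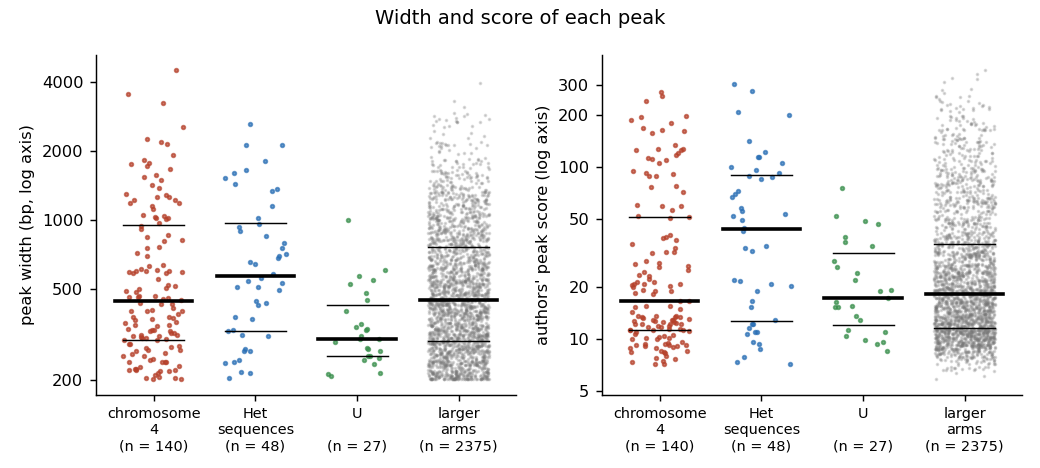
Width in bp (left) and score (right) of every peak, on log axes, on chromosome 4, the Het sequences, U and the larger arms; thick lines are medians and thin lines quartiles. Median widths are 440, 568.5, 302 and 446 bp, and median scores 16.72, 43.46, 17.48 and 18.41.

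Gaps between neighbouring peaks, measured edge to edge, were short on chromosome 4, mixed on the Het sequences and long on U. On chromosome 4 the median of 139 gaps was 2.64 kb (1.698 to 6.03), compared with 17.6 kb (15.5 to 19.3) over 2370 gaps on the larger arms, a ratio of 0.15. With peaks up to 200 bp apart joined this ratio was 0.25, and with joining up to 1 kb it was 0.342. Both lay within the interval of the reported ratio, 0.0966 to 0.343. Among the 90 windows of equal length only 1 had a median gap at or below that of chromosome 4. On U the median of 26 gaps was 129 kb (6.36 to 420), with the reservation on distances along U given above.

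The Het sequences had gaps of very different sizes. Of their 43 gaps, 17 were at most 1 kb (39.5%; 24.98 to 55.6%), only 3 more were at most 10 kb, and the longest gap on each sequence was 1152 kb on 2RHet and 793 kb on 3LHet. The share of gaps up to 1 kb was 31.7% (24.0 to 40.1%) on chromosome 4, 18.3% (16.7 to 19.9%) on the larger arms and 11.5% (2.45 to 30.2%) on U. The Het median of 12.4 kb (0.5 to 47.8) therefore fell between very short and very long gaps. It was 0.71 times that of the larger arms (0.0284 to 2.72). With peaks up to 1 kb apart joined it was 2.70 times, still within that interval.

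Relative to their own density, peaks on chromosome 4 were spaced much like those of the larger arms. The median gap was 0.31 of the mean gap on chromosome 4 and between 0.27 and 0.41 of it on the 5 larger arms. The coefficient of variation of the gaps was 1.38 on chromosome 4, below the 1.52 to 1.73 of the larger arms. On the Het sequences it was 2.34 on 2RHet and 1.95 on 3LHet, above each of the larger arms, and 1.15 on 3RHet with 7 gaps.

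**Figure D5:**
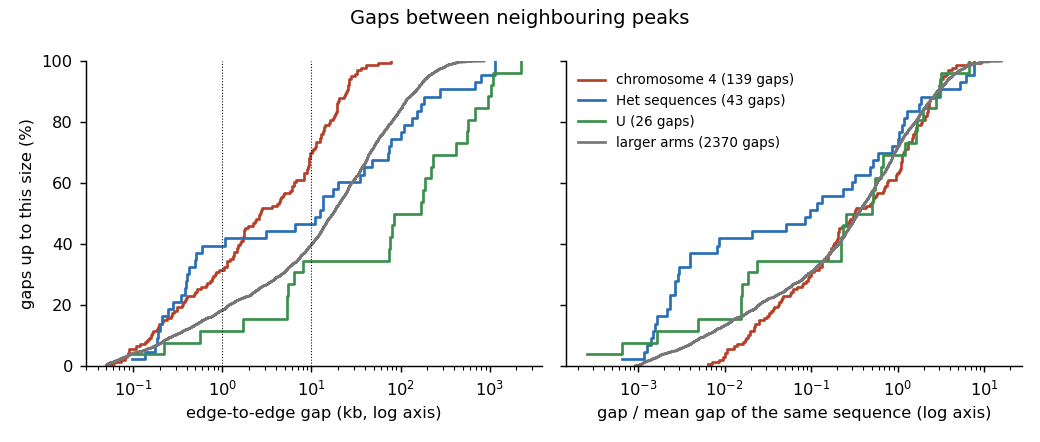
Cumulative share of edge-to-edge gaps up to a given size, in kb (left; dotted lines at 1 and 10 kb) and divided by the mean gap of the same sequence (right), on log axes. On the left, gaps of at most 10 kb make up 69.8% on chromosome 4 and 39.7% on the larger arms; on the right these 2 curves lie close together, while that of the Het sequences is higher among the shortest gaps.

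The same held for grouping. Taking neighbours separated by at most 10 kb as members of a group, chromosome 4 had 43 groups and only 13 peaks alone. Groups of 3 or more held 72.1% of its peaks (63.9 to 79.4%), compared with 37.6% (35.6 to 39.5%) on the larger arms, 43.8% (29.5 to 58.8%) on the Het sequences and 29.6% (13.8 to 50.2%) on U. Of the 90 windows of equal length, 2 had a share at or above that of chromosome 4. When the joining distance was instead set to 20% of the mean gap of each sequence, an alternative chosen after seeing the data, the share was 38.6% (30.5 to 47.2%) on chromosome 4 and 36.9% (34.98 to 38.9%) on the larger arms. On the Het sequences it was 58.3% (43.2 to 72.4%), and on U it was 29.6% under both settings. With the scaled distance, the share on the larger arms lay within the interval of chromosome 4.

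Chromosome 4 had 10 groups of 5 or more peaks, which held 75 of its 140 peaks (53.6%; 45.0 to 62.0%). Such groups held 13.8% of peaks in the whole list, 13.2% on the larger arms and 23.3% on 2L. The joining distance scaled to the mean gap was not applied to groups of this size. The largest group on chromosome 4, 14 peaks in 28.1 kb at 62997 to 91093, opened the span. Its peaks covered 46.7% of it, and 3 of them had a score of at least 100. Another, of 10 peaks, spanned 455188 to 489810 and reached 125.25. These were the only groups of 10 or more on chromosome 4.

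There were 4 groups of 7 peaks. They lay at 196766 to 215091, with the highest score of the chromosome, at 226299 to 252005 with a top score of 170.01, at 324539 to 340018 with 196.76, and at 1217198 to 1238137 with 127.95. Groups of 6 lay at 680021 to 717905, which held the widest peak, at 795697 to 828552 with a top score of 125.08, and at 1042798 to 1052572 with 158.01. A group of 5 at 1071822 to 1086866 had a top score of 258.12. Each of the 10 groups held at least 1 peak with a score of at least 100, whereas the median score within a group was between 12.45 and 26.28. Strong peaks were 15.7% of all peaks on chromosome 4. Whether the groups held more of them than any set of peaks of that size was not tested. Groups on the larger arms were not examined for this.

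Outside chromosome 4 only 1 group of 5 was found on the Het sequences and 1 on U. The first, on 3LHet at 593185 to 607124, had scores from 9.59 to 142.94, a median of 89.21 and 2 strong peaks. The group on U, at 1089322 to 1103662, had scores from 8.59 to 18.98 and covered 12.7% of its 14.3 kb. The groups were similar in length and differed in score.

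The share of peaks with a close neighbour was higher on chromosome 4 and on the Het sequences than on the larger arms. Gaps of up to 1 kb joined 73 of 140 peaks on chromosome 4 to another peak (52.1%; 43.5 to 60.7%) and 28 of 48 on the Het sequences (58.3%; 43.2 to 72.4%), compared with 744 of 2375 on the larger arms (31.3%; 29.5 to 33.2%) and 5 of 27 on U (18.5%; 6.3 to 38.1%). Among strong peaks the counts were 13 of 22 on chromosome 4 (59.1%; 36.4 to 79.3%), 5 of 10 on the Het sequences (50%; 18.7 to 81.3%) and 32 of 167 on the larger arms (19.2%; 13.5 to 26.0%). On chromosome 4 and the Het sequences the share for all peaks thus lay within the interval for strong ones, and on the larger arms the strong peaks had the lower share. The intervals of 22 and 10 strong peaks are wide, and these peaks are also among all peaks. Whether joining depended on score there cannot be judged from these shares. Het peaks without such a neighbour had a median score of 79.24, above the 43.46 of all Het peaks. These comparisons were chosen after the data had been seen.

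Joining at up to 1 kb gave 29 regions of more than 1 peak on chromosome 4 and 11 on the Het sequences. The strongest peak of such a region had a median score of 71.84 on chromosome 4, 58.23 on the Het sequences and 26.07 on the larger arms. The other peaks of a region score lower by construction, and their medians were 13.505 (44 peaks), 12.32 (17 peaks) and 12.13 (433 peaks) in the same order.

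In 9 of the 11 Het regions the strongest peak scored at least 2 times as high as the next (81.8%; 48.2 to 97.7%), compared with 14 of 29 on chromosome 4 (48.3%; 29.4 to 67.5%) and 140 of 311 on the larger arms (45.0%; 39.4 to 50.7%). At 470190 to 474746 on 2RHet, 4 peaks with scores of 11.07, 306, 22.12 and 20.52 followed each other with gaps of 397, 187 and 98 bp. On chromosome 4 the peak with a score of 241.56 was followed by peaks of 11.81, 12.01 and 9.19 with gaps of 310, 82 and 845 bp. Each was 1 strong peak with weak ones next to it. Whether such weak peaks are separate sites or pieces that the caller split from 1 enriched region was not tested.

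Peaks without a neighbour within 1 kb differed between the sets. The 67 such peaks on chromosome 4 had a median score of 13.44 and a median width of 389 bp. For the 20 Het peaks of this kind the medians were 79.24 and 770.5 bp. On the larger arms 1631 such peaks had medians of 19.96 and 459 bp, and on U 22 had 20.74 and 316.5 bp. The lowest of these 4 median scores was that of chromosome 4 and the highest that of the Het sequences.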

How the data were processed

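The submitters' processing notes name CASAVA (1.7.0.2, 1.7.0.3), BWA, MACS2 and build BDGP5. Per the file headers, coordinates are FlyBase release 5. The deposited score is the authors' value per peak. Cut-offs, depth, the treatment of reads matching several places, and pooling of replicates are not given.

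Peaks were read with Python 3.11.15, NumPy 2.4.6, SciPy 1.17.1, pandas 2.3.3 and Matplotlib 3.10.9. A gap is the number of bases between neighbouring peaks. A span, from the lowest peak start to the highest peak end, stands in for sequence length. It shortens sequences with few peaks, so Het densities are not given. Windows of equal length were tiled from the first peak of each larger arm, with peaks placed by their centres. Joining was checked on simulated lists with known groups.

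Members and lists were chosen with earlier results of these data known. Regions were named by rule: the 8 highest scores on chromosome 4, and the 3 highest on each Het sequence and on U. Also named by rule were the 5 widest, every group of 5 or more, and the 3 longest empty stretches between peaks of chromosome 4. Other regions, the scaled joining distance, the second tiling and the joining of strong peaks were chosen after seeing the data. Release 5 sequence and annotation were not used here, so peaks carry no gene names.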

Additional observations from a re-analysis of the deposited data

Results flagged for a closer look

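Besides the peaks described, the list holds 332 peaks on Uextra, small unplaced scaffolds that were not compared here. They make up 11.4% of the list. Their median width was 506 bp, their median score 24.695 and their highest score 111.89.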

How the results depend on the processing

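No paired analysis was possible because peaks carry no values of single libraries, and no replicate could be left out. A value counted as moved when it left the 95% interval of the reported value. Of 99 alternatives for 22 results, 78 did not move the value and 21 did. The count of 78 includes alternatives that could not move a value. Leaving out the largest group on the larger arms cannot change shares within chromosome 4, the Het sequences or U. Wide intervals also make a move less likely. The Het gap ratio of 2.70 counted as not moved within 0.0284 to 2.72. The count is thus no measure of stability. The causes were not tested beyond what each alternative does by its construction.

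With peaks below the list median score left out, the median width of chromosome 4 became 1.37 times that of the larger arms (0.99 as reported), its median score 1.58 times (0.91), and the median width on U 0.50 times (0.68). The median width on the Het sequences became 1.08 times (1.27), within its reported interval. Shares in groups of 3 or more became 46.2% on chromosome 4, 18.75% on the Het sequences, 0% on U and 14.5% on the larger arms. The first 2 ratios passed from below to above 1. The statement that typical peaks of chromosome 4 resemble those of the larger arms thus did not hold for peaks at or above the list median score. Without the largest group on the larger arms the ratios of width and score were 1.00 and 0.92. With joining at up to 200 bp they were 0.96 and 0.95. Joining at up to 1 kb gave a median width 1.40 times that of the larger arms on chromosome 4 and 1.88 times on the Het sequences (1.27).

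Groups joined at up to 5 kb held 55% of peaks on chromosome 4 and 26.3% on the larger arms. Joined at up to 20 kb they held 92.9%, 55.2% and, on the Het sequences, 60.4%. Scaled to 20% of the mean gap, the share on chromosome 4 was 38.6%. The density of chromosome 4 in covered sequence was 6.48 times that of the larger arms, although 1 of the 90 windows of equal length had more covered sequence. A score of at least 50 was reached by 26.4% of peaks on chromosome 4, 45.8% on the Het sequences, 7.41% on U and 17.9% on the larger arms. For a score in the top 10% of the list the shares were 19.3%, 31.25%, 0% and 9.89% in the same order. With joining at up to 2 kb, 81.8% of strong peaks on chromosome 4 had a neighbour. On the Het sequences 50% did, and on the larger arms 22.8%. The number of peaks, 48 and 27, limits the precision on the Het sequences and U.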

Other observations

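On U, 4 of the 26 gaps measured between 5 and 7 kb (5317 to 6356 bp). They were noticed after the values were seen, and the scaffolds to which the peaks belong were not used here. On 3RHet the last peak, at 1934593 to 1935383, was 791 bp wide with a score of only 8.74. It was the widest of the 9 Het peaks in the lowest score class, whose median width was 244 bp.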
